A study of Mus musculus with 14 samples.

Results

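The genes described here are 32 members of glycolysis, the pentose phosphate pathway and the hypoxia response, taken from a list and not from measured values. Of these, 28 had a probe set that named 1 gene, out of 19937 genes with such a probe set, and all 28 passed the filter on dim genes. Gapdh was named only on 11 probe sets that carried several genes, and Gpi1, Eno1 and G6pdx were not analysed here. The data came from 14 single-colour arrays of OTI effector CD8+ T cells, whose transferred receptor recognises an ovalbumin peptide. Donor cells from fetal liver chimeras had been placed in congenic C57BL/6J hosts, which received Listeria-ova on the following day. Cells were sorted by flow cytometry on day 6 of that infection. There were 3 arrays of wild-type (WT) KLRG1hi cells, 5 of WT KLRG1lo cells, and 2 each of Id2KO, BimKO and Id2KOBimKO KLRG1lo cells. KLRG1 is a surface receptor carried by terminal effector cells, Id2 inhibits E proteins, and Bim (encoded by Bcl2l11) is a death-promoting protein. The labels name neither the alleles nor the number of animals behind a sample, and the source label of the Id2KOBimKO arrays does not mention OTI. Mutant KLRG1hi cells were not analysed here.

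Glycolysis splits glucose into pyruvate, which is either reduced to lactate and exported or passed to the mitochondria, where pyruvate dehydrogenase opens its oxidation. The pentose phosphate pathway branches off to make NADPH and ribose. HIF-1 is a transcription factor that induces many of these genes; prolyl hydroxylases and VHL mark its alpha subunit for destruction when oxygen is present. Activated CD8+ T cells are known for high aerobic glycolysis, driven in part by MYC and HIF-1.

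The labels were checked first. Log2 signal of Klrg1 was 11.04 ± 0.50 on the KLRG1hi arrays of WT cells and 6.27 ± 0.29 on their KLRG1lo arrays (SD, n = 3 and 5). Id2 was 10.93 ± 0.20 in WT KLRG1lo, 9.80 ± 0.10 in Id2KO and 9.74 ± 0.14 in Id2KOBimKO (SD, n = 5, 2 and 2). Bcl2l11 did not separate the arrays labelled BimKO (7.51 ± 0.21) and Id2KOBimKO (7.80 ± 0.30) from WT KLRG1lo (7.60 ± 0.19; SD, n = 2, 2 and 5). Whether its probe set lies inside the deleted part was not tested, so the Bim genotype below is that of the labels alone. CD8 T cell markers were high throughout, with a summed linear signal of 17048 to 27064 over 7 genes. Background, taken as the median log2 signal of probe sets with no gene name, fell into a lower set of 6 arrays (5.01 to 5.07) and a higher set of 8 (5.16 to 5.39). The lower set held arrays 1 and 2 of WT KLRG1lo, and the higher set held arrays 3 to 5 and both BimKO arrays. Every other group had arrays in both. Array spread, meaning the interquartile range of log2 signal over all probe sets, ran from 2.44 to 2.87. Whether replicates came from different mice is not stated in the labels, so the p-values reflect sample-to-sample spread alone, which may be technical. These were bulk samples, in which fewer cells of a type and less RNA per cell cannot be told apart.

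For 4 members the probe set with the highest mean, which the selection rule takes, sat among probe sets of another chromosome in the order of probe set numbers. Of all single-gene probe sets, 97.2% had neighbours on their gene's own chromosome. The exceptions were Hk1 (hexokinase 1), with 20 of 20 neighbours on chromosome 14 instead of 10, and Pkm (pyruvate kinase), with 19 of 20 on chromosome 5 instead of 9. Ldhb had 17 neighbours on chromosome 19 instead of 6, and Pgam1 had 19 on chromosome 7 instead of 19. Hk1, Pkm and Ldhb each had another probe set in place, and its values are given beside the first where they matter; Pgam1 had none. What these 4 probe sets measure was not tested.

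Promoters are shown for 3 members on which the results turn: Pdk1, the only member that passed a test, Hif1a, which encodes the HIF-1 alpha subunit, and Ldha, a classical HIF-1 and MYC target. Each window runs from upstream to just past a RefSeq start on the plus strand of GRCm38.p6: chr2:71872974-71873273 for Pdk1, chr12:73907617-73907916 for Hif1a and chr7:46845554-46845853 for Ldha. Capitals mark the HIF-1 core, read here as ACGTG or GCGTG on either strand.
Pdk1: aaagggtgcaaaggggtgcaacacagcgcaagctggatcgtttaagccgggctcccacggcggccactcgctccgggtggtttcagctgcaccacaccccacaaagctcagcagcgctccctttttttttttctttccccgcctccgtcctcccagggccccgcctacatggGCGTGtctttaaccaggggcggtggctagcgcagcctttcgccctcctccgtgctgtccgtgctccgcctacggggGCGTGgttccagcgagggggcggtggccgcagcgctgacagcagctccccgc
Hif1a: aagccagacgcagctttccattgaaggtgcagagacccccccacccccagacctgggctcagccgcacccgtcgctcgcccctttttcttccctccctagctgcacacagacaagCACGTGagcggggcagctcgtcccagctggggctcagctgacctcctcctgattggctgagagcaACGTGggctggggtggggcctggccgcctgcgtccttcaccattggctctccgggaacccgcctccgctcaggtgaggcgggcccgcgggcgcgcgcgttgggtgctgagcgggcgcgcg
Ldha: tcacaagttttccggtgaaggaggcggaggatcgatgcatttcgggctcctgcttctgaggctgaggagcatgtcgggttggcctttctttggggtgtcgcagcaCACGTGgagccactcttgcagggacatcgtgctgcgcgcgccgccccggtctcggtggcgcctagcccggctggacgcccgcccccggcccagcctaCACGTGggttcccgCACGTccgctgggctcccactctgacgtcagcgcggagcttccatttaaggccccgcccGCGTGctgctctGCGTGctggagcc
The Pdk1 window held 2 matches to GCGTG and 0 to ACGTG, and the Hif1a window 3 to ACGTG. The Ldha window held 5 to ACGTG and 2 to the other form. An E-box that MYC can bind, CACGTG, overlaps the HIF-1 core and counts as ACGTG on both strands; it was matched in the Hif1a and Ldha windows. All 32 members matched the promoter table, with 46 windows. Pdk1 and Ldha each had another window, not shown: that of Pdk1 held 0 matches to either core, and that of Ldha 2. Either core occurred in 37 member windows (80.4%) and in 43.8% of all 32851 windows of the same length. E proteins, which Id2 restrains, bind E-boxes of the form CANNTG. The version CAGCTG was in 15.2% of member windows and 16.3% of all, and CAGGTG in 17.4% and 20.2%. In the windows printed, CAGCTG was matched in Pdk1 and Hif1a, and CAGGTG in Hif1a. A match of letters is a description, not a binding site.

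WT KLRG1hi and WT KLRG1lo cells were compared first, to ask whether terminal effectors differ in these pathways from KLRG1lo cells of the same genotype. One gene changed: Pdk1, which encodes the kinase that shuts off pyruvate dehydrogenase and so keeps pyruvate out of the mitochondria, was lower in KLRG1hi cells. It was 1 of 28 members to pass limma's test at an adjusted p under 0.05, and 0.942% of all 14438 genes tested passed (0.263% in that direction). The median difference of the members was 0.04, and that of all genes 0.00, on the log2 scale. The members' value lay between opposite shifts, -0.17 with only KLRG1lo arrays 1 and 2 as control and 0.20 with only arrays 3 to 5. At an unadjusted p under 0.05, 1 member and 7.2% of all genes were counted.

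The 3 WT KLRG1hi arrays had Pdk1 log2 signals of 5.71, 5.88 and 6.86. Those of WT KLRG1lo were 7.18, 7.59, 7.47, 7.13 and 7.45. All KLRG1hi arrays lay below all KLRG1lo arrays, and the third KLRG1hi array was the nearest to them. Pdk1 fell by 1.22 on the log2 scale, or 2.32-fold (SE 0.22, limma adjusted p = 0.00983, 95% interval -1.68 to -0.75). Within the first background set (KLRG1hi arrays 1 and 2, KLRG1lo arrays 1 and 2) the difference was -1.59, and within the second (KLRG1hi array 3, KLRG1lo arrays 3 to 5) it was -0.49. Without KLRG1hi array 2 the difference was -1.08 and no longer passed (limma adjusted p = 0.113), and with only arrays 1 and 2 of WT KLRG1lo as the control it was -1.24 (limma adjusted p = 0.173).

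**Figure D1:**
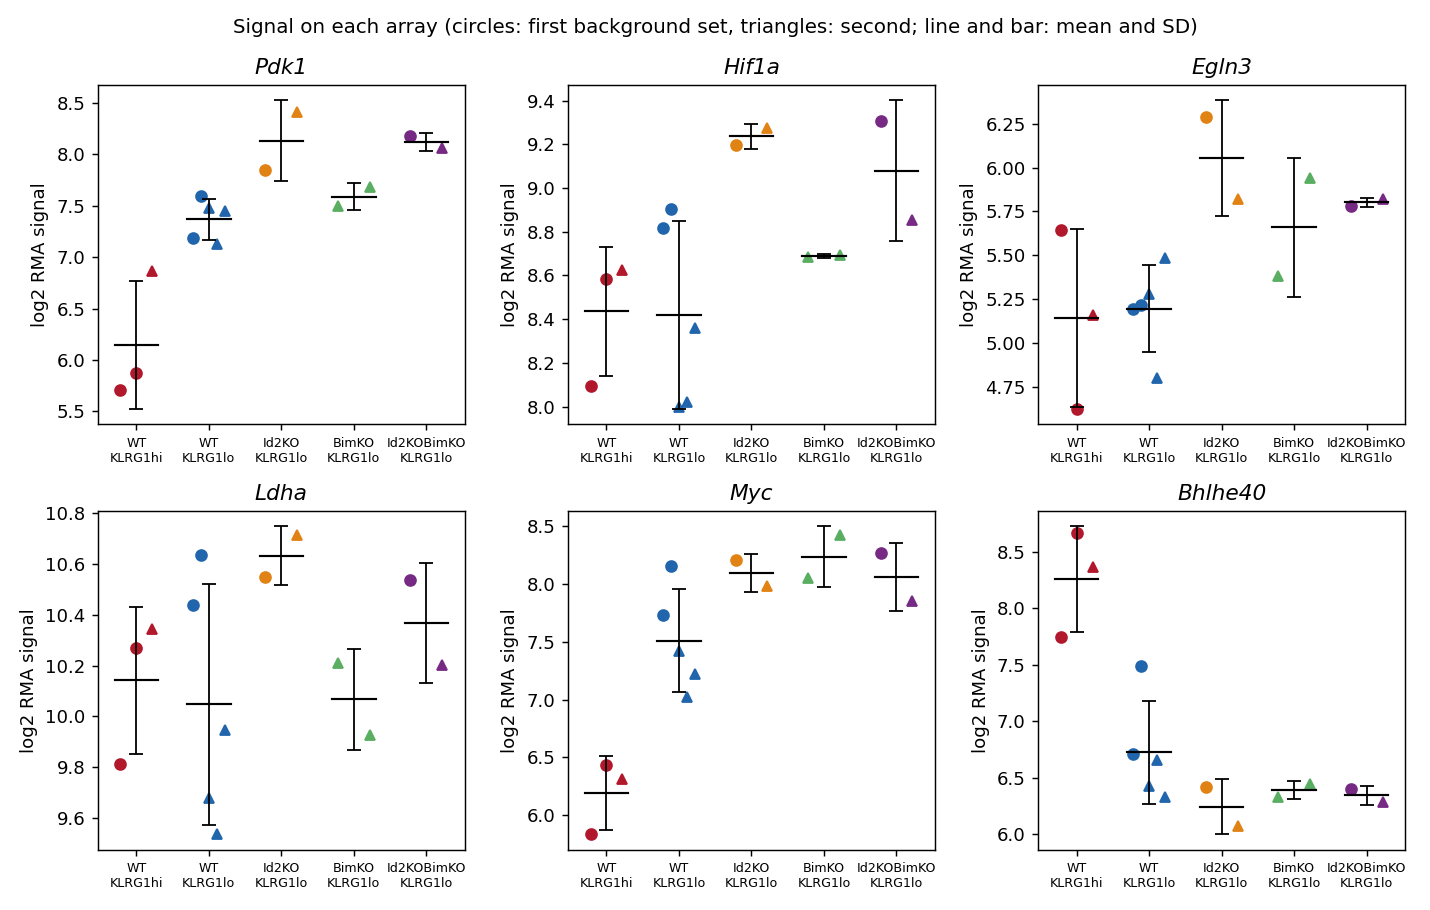
Log2 RMA signal of Pdk1, Hif1a, Egln3 and Ldha and of the related genes Myc and Bhlhe40 on every array, by group along the horizontal axis; circles mark the first background set, triangles the second, and the line and bar give mean and SD. Pdk1 and Myc lie lower, and Bhlhe40 higher, on the 3 WT KLRG1hi arrays than on the 5 WT KLRG1lo arrays. The vertical axes differ between panels and do not start at 0.

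By the probe sets of the selection rule, the other 27 members differed between the WT populations by -0.22 to 0.36, and none passed. Their 95% intervals ran from -0.70 to 1.00, and 20 members had intervals within a 1.5-fold change. The arrays of the populations did not overlap for 3 members (Pdk1, Aldoc and Pfkm) and for 4.18% of all genes.

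Among the enzymes from glucose to triose phosphate, Aldoc (aldolase C) had the smallest unadjusted p after Pdk1. Its log2 signal was 6.35, 6.14 and 6.14 in KLRG1hi and 5.90, 5.91, 6.01, 6.02 and 5.95 in KLRG1lo. All KLRG1hi arrays were the higher ones, but the difference of 0.25 (SE 0.13) did not pass (limma adjusted p = 0.750). Pfkm, the muscle-type phosphofructokinase, was 5.84, 5.92 and 6.01 in KLRG1hi and 6.04, 6.02, 6.31, 6.25 and 6.12 in KLRG1lo. Its arrays stood apart in the opposite direction by a narrow gap, and the difference of -0.22 (SE 0.13) did not pass either (limma adjusted p = 0.876). Hexokinase 2 (Hk2), which commits glucose to the cell, had group means of 6.58 ± 0.07 (SD, n = 3) and 6.43 ± 0.13 (SD, n = 5). The other probe set of Hk1 gave a difference of 0.17 (SE 0.18), against 0.12 for the first.

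From triose phosphate to lactate none of the enzymes passed. Pgk1 (phosphoglycerate kinase) differed by -0.01 (95% interval -0.47 to 0.45) and Pkm by 0.09 (95% interval -0.28 to 0.47), with 0.02 from the other probe set of Pkm. Ldha, which turns pyruvate into lactate, was 9.81, 10.27 and 10.34 in KLRG1hi and 10.44, 10.64, 9.68, 9.54 and 9.95 in KLRG1lo. These values overlapped fully, and the difference was 0.09 (SE 0.22). Ldhb differed by -0.13, but by 0.45 (SE 0.26, limma adjusted p = 0.879) from its other probe set, so its sign depended on the probe set. That other probe set read 6.35, 5.46 and 4.67 in KLRG1hi and 4.93, 4.69, 5.11, 5.19 and 5.31 in KLRG1lo. The lactate carriers Slc16a1 and Slc16a3 differed by -0.02 (SE 0.22) and -0.03 (SE 0.16). In the pentose phosphate pathway Pgd, which makes NADPH, differed by -0.16 (SE 0.21), and the carbon-shuffling enzymes Taldo1 and Tkt by 0.09 (SE 0.20) and 0.15 (SE 0.26).

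No oxygen-sensing gene passed between the WT populations. Hif1a was 8.09, 8.58 and 8.63 in KLRG1hi and 8.82, 8.90, 7.997, 8.02 and 8.36 in KLRG1lo, a difference of 0.02 (95% interval -0.43 to 0.46). Vhl, the ligase subunit that binds hydroxylated HIF, differed by 0.08 (SE 0.14). The prolyl hydroxylase genes Egln1 and Egln3 differed by 0.36 (SE 0.30) and -0.05 (SE 0.21). P4ha1, a collagen prolyl hydroxylase and HIF target, was 6.93, 7.44 and 7.53 in KLRG1hi and 7.42, 7.37, 6.60, 6.78 and 6.92 in KLRG1lo. Its groups overlapped, and the difference of 0.28 (SE 0.19, limma adjusted p = 0.908) turned to -0.089 against KLRG1lo arrays 1 and 2 alone.

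Of 71 related genes tested, chosen around these pathways with earlier results known, 1 rose and 1 fell in KLRG1hi cells. Bhlhe40, a transcriptional repressor that hypoxia can induce, was 7.75, 8.67 and 8.36 in KLRG1hi and 6.71, 7.49, 6.43, 6.66 and 6.33 in KLRG1lo. It rose by 1.54 (SE 0.24, limma adjusted p = 0.00267), but against KLRG1lo arrays 1 and 2 alone the difference was 1.16 (limma adjusted p = 0.166). Myc, the growth regulator that drives glycolytic genes in activated T cells, was 5.83, 6.44 and 6.31 in KLRG1hi and 7.73, 8.16, 7.42, 7.02 and 7.22 in KLRG1lo. It fell by 1.32 (SE 0.22, limma adjusted p = 0.0056), and it passed in each of 21 alternative settings. Among the relatives of Pdk1, Pdk2 differed by -0.01 (95% interval -0.30 to 0.29) and Pdk3 by 0.41 (95% interval -0.16 to 0.98). Pdk4 signal was under background in both populations, at 4.53 and 4.43. Neither gene of the pyruvate dehydrogenase E1 enzyme passed, with differences of 0.07 (SE 0.19) for Pdha1 and 0.12 (SE 0.13) for Pdhb.

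Cell cycle genes and markers of other cells were read on the same arrays. Of 19 cell cycle genes, 6 rose and 0 fell in KLRG1hi cells, with a median difference of 0.66. None of 8 B cell markers passed. Their summed linear signal was 284 to 363 in KLRG1hi, 358 to 383 on KLRG1lo arrays 1 and 2, and 843 to 1191 on KLRG1lo arrays 3 to 5. Of 5 NK cell markers tested 1 passed (Klrb1c, higher by 2.92 in KLRG1hi), and estimates were above 0 for 3 and below 0 for 2. The sum over the 6 with a probe set was 1280 to 2701 in KLRG1hi against 952 to 1424 in KLRG1lo. The sum over 7 monocyte or macrophage markers was 591 to 638 and 708 to 1161, and none of the 6 tested passed. Pdk1 differed by -1.24 against KLRG1lo arrays 1 and 2 alone, whose B cell signal was the closer to that of KLRG1hi. That difference did not pass (limma adjusted p = 0.173). The part of other cells in the Pdk1 difference was not tested.

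**Figure D2:**
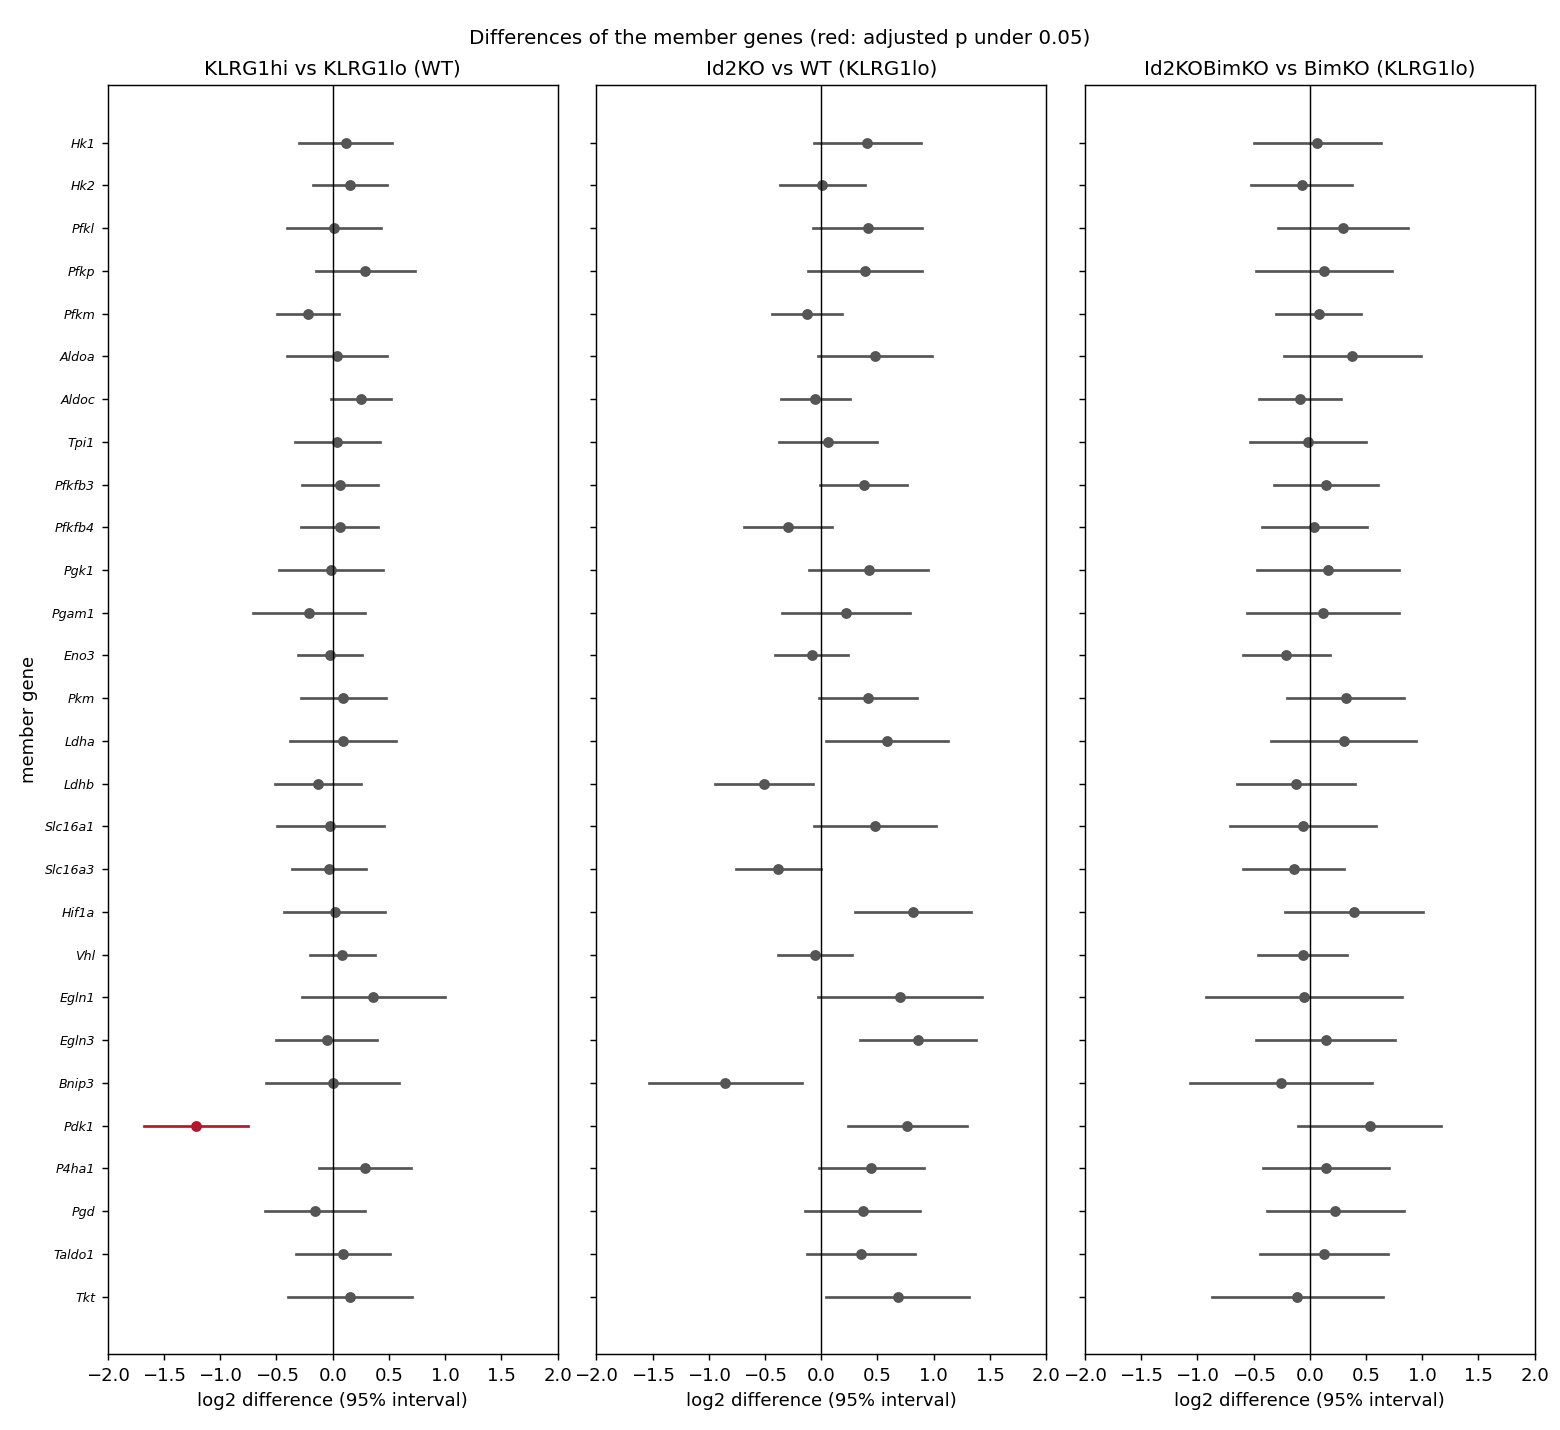
Difference of each of the 28 members on the log2 scale (horizontal axis) with its 95% interval in 3 comparisons, members in rows in the order of the pathway. Pdk1 in WT KLRG1hi against WT KLRG1lo, in red, is the only difference at an adjusted p under 0.05; in Id2KO against WT, 20 of 28 estimates lie above 0.

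Before the mutants are compared with WT KLRG1lo cells, the 5 WT KLRG1lo arrays need to be seen apart. Of 28 members, 16 were higher on both arrays 1 and 2 than on any of arrays 3 to 5, which 26.3% of all genes were, and 4 were lower on both, as were 17.5% of all genes. The median difference between these sets was 0.42 over the members and 0.01 over all genes. Egln1 was 8.24 and 8.48 on arrays 1 and 2 and 7.21, 7.26 and 7.23 on arrays 3 to 5. Aldoa, the main aldolase, was 10.55 and 10.65 and then 9.71, 9.98 and 9.99. Both sets of values are tight within and far apart between. Ldha differed by 0.81, Hif1a by 0.74, and Pdk1 by only 0.04. The 4 lower members were Pfkm, Aldoc, Pfkfb4 and Bnip3. Array spread was 2.68 to 2.82 on arrays 1 and 2 and 2.46 to 2.57 on arrays 3 to 5. Many markers of other cells split between the same arrays, lower on arrays 1 and 2. Of 8 B cell markers 7 were lower on both arrays 1 and 2, with a median difference of -1.33, and their summed linear signal was 358 to 383 there and 843 to 1191 on arrays 3 to 5. Cd74, part of the antigen-presenting machinery of B cells, was 5.73 on both of the first and 8.46, 8.73 and 7.98 on the rest. All 4 red cell precursor markers were lower on arrays 1 and 2 (sums of 115 to 131 and 242 to 439), as were 3 of 3 platelet and 3 of 5 neutrophil markers. Monocyte or macrophage markers were mixed, with 2 higher and 3 lower of 6, while Lyz2 was 5.26 and 5.59 and then 6.75, 8.44 and 6.71. CD8 T cell markers were higher on arrays 1 and 2 for 4 of 7, and cell cycle genes for 11 of 19. The part of these cells in the members' split was not tested. Across the 5 arrays the SD of a member had a median of 0.35, against 0.21 over all genes.

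**Figure D3:**
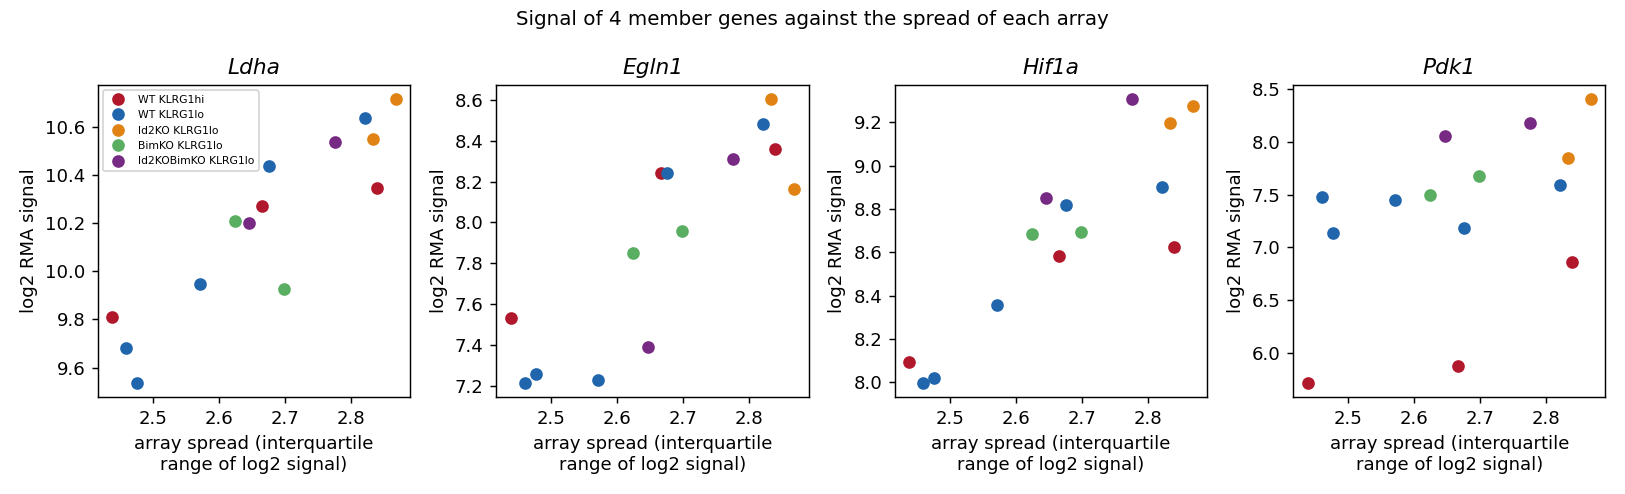
Log2 RMA signal of Ldha, Egln1, Hif1a and Pdk1 (vertical axes, which do not start at 0) against the spread of each array (horizontal axis, interquartile range of log2 signal), 1 point per array, coloured by group. Within the 5 WT KLRG1lo arrays, Egln1, Ldha and Hif1a are high on the pair with a spread of 2.68 to 2.82, while Pdk1 differs by 0.04 between that pair and the rest.

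Id2KO cells were compared with WT KLRG1lo cells to ask how these genes differ with loss of Id2. The Id2KO arrays also differed in sex-linked transcripts, with Xist at 4.47 and 4.99 against 8.78 to 9.97 in WT KLRG1lo. Loss of Id2 and sex therefore cannot be told apart here, for the members or for all genes. None of 28 members passed limma's test, against 0.111% of all genes (16 genes). At an unadjusted p under 0.05 there were 8 members, against 18.1% of all genes. The median difference of the members was 0.38 and that of all genes 0.03. Estimates above 0 numbered 20 of 28, against 52.2% of all genes. The same arrays differed in markers of other cells, of which 0 passed. Estimates were below 0 for 7 of 8 B cell markers (median -0.79), 5 of 5 neutrophil and 4 of 4 red cell precursor markers. They were above 0 for 7 of 7 CD8 T cell markers (median 0.34). In the remaining lists, 3 of 3 platelet, 4 of 5 NK cell, 4 of 6 monocyte or macrophage and 2 of 4 CD4 T cell markers were below 0. The summed B cell signal was 323 to 382 in Id2KO, near the 358 to 383 of WT KLRG1lo arrays 1 and 2 and below the 843 to 1191 of arrays 3 to 5. Their part in the members' shift was not tested. The Id2KO arrays had the widest spread, 2.85 ± 0.02 (SD, n = 2), against 2.60 ± 0.15 (SD, n = 5) in WT KLRG1lo. With spread as a covariate the members' median was -0.04, after quantile normalization it was 0.14, with only WT KLRG1lo arrays 1 and 2 as control 0.02, and with only arrays 3 to 5 0.58. Arrays of the groups did not overlap for 7 members, against 28.5% of all genes: 4 were higher (14.2% of all genes) and 3 lower (14.2%).

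Among the oxygen-sensing genes, Egln3 and Hif1a had the highest estimates of all members, whereas Vhl differed by -0.06. Hif1a was 9.20 and 9.28 in Id2KO, above each of the 5 WT KLRG1lo arrays given earlier, whose highest was 8.90. The difference of 0.82 (SE 0.24) did not pass (limma adjusted p = 0.275). It was 0.38 with only WT KLRG1lo arrays 1 and 2 as control and 0.28 with spread as a covariate, whereas with only arrays 3 to 5 as control it was 1.11 and passed (limma adjusted p = 0.0193). Egln3, a hydroxylase that HIF-1 itself induces, was 6.29 and 5.82 in Id2KO and 5.20, 5.22, 5.28, 4.80 and 5.49 in WT KLRG1lo. The groups did not overlap, though 7 of 14 arrays lay at or below 5.39, the highest background, and the difference of 0.86 (SE 0.24) did not pass (limma adjusted p = 0.275). It was 0.85 to 0.95 in the other 3 settings just named for Hif1a. Hif1a and Egln3 lie on chromosome 12, as Id2 does, and any part of the region around the deleted gene was not tested. Egln1 was 8.60 and 8.16 in Id2KO and differed by 0.70 (SE 0.35). The first array lay above the highest WT KLRG1lo array (8.48), and the second within their range.

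Pdk1 was 7.85 and 8.41 in Id2KO, above all WT KLRG1lo arrays, and so on the other side of them from the WT KLRG1hi arrays. The difference of 0.76 (SE 0.25, limma adjusted p = 0.275) did not pass, and it was 0.74 and 0.78 against WT KLRG1lo arrays 1 and 2 or arrays 3 to 5 alone. With spread as a covariate it was 0.36. Bnip3, which encodes a mitochondrial protein of autophagy and death induced by HIF-1, was 4.48 and 4.30 in Id2KO and 4.86, 4.87, 5.56, 5.81 and 5.12 in WT KLRG1lo. The Id2KO arrays were the lowest, but 11 of 14 arrays lay at or below the highest background. The difference of -0.85 (SE 0.32) did not pass (limma adjusted p = 0.275) and was -0.10 with spread as a covariate.

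Glycolytic enzymes in Id2KO cells had smaller differences. Ldha was 10.55 and 10.72, against a WT KLRG1lo range of 9.54 to 10.64, and differed by 0.59 (SE 0.26, limma adjusted p = 0.275). Its groups overlapped through WT KLRG1lo array 2. Aldoa was 10.56 and 10.74 and differed by 0.48 (SE 0.24), and Pfkfb3, which makes the activator of phosphofructokinase, was 7.68 and 7.76 against 7.07 to 7.66. Pfkfb3 arrays did not overlap, by a gap at the second decimal, and the difference was 0.38 (SE 0.18, limma adjusted p = 0.275). Pkm differed by 0.41 from either probe set (SE 0.21 and 0.22), while Hk1 differed by 0.41 from the first and 0.22 from the other. Pgk1 differed by 0.42 (SE 0.25). It is X-linked, and the Id2KO arrays differed from all others in sex-linked transcripts: Xist was 4.73 ± 0.37 (SD, n = 2) there against group means of 8.90 to 10.11, and Eif2s3y 7.79 ± 0.57 (SD, n = 2) against 3.04 to 3.45. Sex and loss of Id2 cannot be told apart in Id2KO against WT. Sex also enters the mean Id2 difference and the difference by Bim given below.

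No gene of lactate handling passed, and the estimates had both signs. Slc16a1 was 8.24 and 8.27 in Id2KO, against 7.39 to 8.26 in WT KLRG1lo, and differed by 0.48 (SE 0.26). Slc16a3 went the other way, at 6.73 and 6.64 against 6.95 to 7.26, without overlap, by -0.38 (SE 0.18, limma adjusted p = 0.275). Ldhb was 5.15 and 4.93 against 5.26 to 5.80, without overlap, and differed by -0.51 (SE 0.21). Its other probe set gave -0.22 (SE 0.30), and both lay near background. In the pentose phosphate pathway Tkt was 8.91 and 9.19 against 7.84 to 8.92 and differed by 0.68 (SE 0.30, limma adjusted p = 0.275), while Pgd and Taldo1 differed by 0.37 (SE 0.24) and 0.36 (SE 0.23).

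Among the 71 related genes 0 passed limma's test in Id2KO against WT, and 12 had an unadjusted p under 0.05, no larger a share than the 18.1% of all genes. The smallest unadjusted p-values were those of Adpgk, an ADP-dependent glucokinase, and Pdhb. Adpgk was 7.26 on both Id2KO arrays and 6.95, 6.90, 6.75, 6.63 and 6.68 in WT KLRG1lo, a difference of 0.47 (SE 0.16). Pdhb was 8.29 and 8.56, and 8.0, 8.10, 7.87, 8.10 and 7.86 in WT KLRG1lo, a difference of 0.44 (SE 0.15). In both genes the Id2KO arrays were the higher ones (limma adjusted p = 0.275 for each).

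The arrays labelled Id2KOBimKO were set against those labelled BimKO, the same question on the background labelled as lacking Bim. Again 0 of 28 members passed limma's test; 0% of all genes did, and at an unadjusted p under 0.05 there were 0 members and 1.81% of all genes. The median difference was 0.10 over the members and 0.03 over all genes. Arrays did not overlap for 8 members, against 29.7% of all genes: 6 were higher (17.6% of all genes) and 2 lower (12%). Pdk1 was 8.18 and 8.06 in Id2KOBimKO and 7.49 and 7.68 in BimKO, without overlap, and differed by 0.53 (SE 0.30, limma adjusted p = 1.000). Hif1a was 9.31 and 8.85, and 8.68 and 8.70 in BimKO, a difference of 0.39 (SE 0.29). With spread as a covariate the differences were 0.45 for Pdk1 and 0.29 for Hif1a. The test of whether the Id2 difference varied with Bim gave -0.23 (SE 0.39) for Pdk1 and -0.43 (SE 0.38) for Hif1a, and neither passed. Aldoa was 10.63 and 10.23, and 10.10 and 10.00 in BimKO, a difference of 0.38 (SE 0.29). Pkm was 9.54 and 9.24, and 9.14 and 9.003 in BimKO, a difference of 0.32 (SE 0.25), with 0.28 from its other probe set. Each of these pairs was free of overlap, with the second Id2KOBimKO array the lower. That array and both BimKO arrays were in the higher background set, and the first Id2KOBimKO array in the lower. Background set and Id2 label could therefore not be fully told apart here. Without the first Id2KOBimKO array the differences were 0.16 for Hif1a, 0.18 for Aldoa and 0.17 for Pkm. That of Pdk1 was at least 0.44 whichever array was left out. Of the related genes, Bpgm, which makes 2,3-bisphosphoglycerate, was 6.80 and 7.72 against 6.25 and 6.93, and Pklr, the liver-type pyruvate kinase, was 5.67 and 5.39 against 5.73 and 5.98. Their differences of 0.67 (SE 0.38) and -0.32 (SE 0.19) did not pass. The red cell precursor marker Alas2 was 5.36 and 8.20 in Id2KOBimKO and 5.47 and 6.45 in BimKO, highest on the array where Bpgm was, and its part was not tested.

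Averaged over both Bim backgrounds, the Id2 difference passed for 0 of 28 members and 0.18% of all genes in limma. Sex enters this average through the Id2KO arrays. There were 7 members at an unadjusted p under 0.05, against 7.11% of all genes. The median was 0.25 over the members and 0.02 over all genes, and -0.00 over the members with spread as a covariate. Pdk1 had the smallest unadjusted p, with a mean difference of 0.65 (SE 0.20, limma adjusted p = 0.478), followed by Hif1a at 0.60 (SE 0.19, limma adjusted p = 0.522). Egln3 was next at 0.50 (SE 0.19) and Pkm at 0.37 (SE 0.16), both with a limma adjusted p of 0.620. All 4 had a positive sign in both backgrounds, but they were picked on the average of those same differences, so the shared sign is no separate support. Egln3 overlapped on the background labelled as lacking Bim, at 5.78 and 5.82 in Id2KOBimKO and 5.38 and 5.94 in BimKO. Of the related genes, Gpd1l, a glycerol phosphate dehydrogenase relative, gave 0.46 (SE 0.16) and Rpia, the ribose phosphate isomerase, 0.38 (SE 0.15), with 0 of 71 past the test.

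The test of whether the Id2 difference itself varied with Bim passed for 0 of 28 members and 0.0277% of all genes in limma, and for 0 members and 4.27% of all genes at an unadjusted p under 0.05. The Id2KO arrays alone differed in sex-linked transcripts such as Xist and Eif2s3y, so sex cannot be told apart from Bim in these shares. The median of this difference of differences was -0.13 over the members and -0.02 over all genes. With only WT KLRG1lo arrays 3 to 5 as control the members' median was -0.39. Egln3 gave -0.72 (SE 0.38), Tkt -0.79 (SE 0.47), Egln1 -0.75 (SE 0.54) and Slc16a1 -0.54 (SE 0.40), each with a limma adjusted p of 0.726. Their intervals all reached 0, and that of Egln1 ran from -1.89 to 0.38. Of the related genes, Adpgk gave -0.50 (SE 0.24) and Fbp2, the muscle fructose bisphosphatase, 0.52 (SE 0.26).

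The arrays labelled BimKO were set against WT KLRG1lo to see what loss of Bim does to these genes. None of 28 members and 0% of all genes passed limma's test, and at an unadjusted p under 0.05 there were 0 members and 6.91% of all genes. The median was -0.01 over the members and -0.02 over all genes. Over the members it was -0.17 with only WT KLRG1lo arrays 1 and 2 as control and 0.18 with only arrays 3 to 5. No member had groups without overlap, against 12.6% of all genes. Egln3 was 5.38 and 5.94 in BimKO, a difference of 0.46 (SE 0.24, limma adjusted p = 0.657). Slc16a3 was 7.02 and 6.60 (difference -0.25, SE 0.18), Pkm 9.14 and 9.003 (difference -0.26, SE 0.21) and Bnip3 4.93 and 4.74 (difference -0.40, SE 0.32). The 95% intervals of 27 of 28 members lay within 1 log2 unit of 0, Bnip3 being the exception, with a lower end of -1.08. Among the related genes Myc was 8.05 and 8.43 in BimKO and differed by 0.73 (SE 0.26, limma adjusted p = 0.657). The first array lay above all but 1 WT KLRG1lo array, and the second above all of them. Adpgk differed by 0.31 (SE 0.16).

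Id2KOBimKO cells were also set against the same WT KLRG1lo arrays, so the values below share their control with those of Id2KO and BimKO. Limma passed 0 of 28 members and 0.0623% of all genes, and 4 members and 3.95% of all genes had an unadjusted p under 0.05. The median was 0.10 over the members and -0.00 over all genes. With only WT KLRG1lo arrays 1 and 2 as control the members' median was -0.17, and with only arrays 3 to 5 it was 0.34. Arrays did not overlap for 5 members, against 12.6% of all genes: 2 were higher (5.29% of all genes) and 3 lower (7.27%). Pdk1 differed by 0.75 (SE 0.25), Hif1a by 0.66 (SE 0.24), Egln3 by 0.61 (SE 0.24) and Slc16a3 by -0.39 (SE 0.18), each with a limma adjusted p of 0.785. Egln3 was 5.78 and 5.82 and Slc16a3 6.63 and 6.71 in Id2KOBimKO. Both stood apart from the WT KLRG1lo arrays, as Pdk1 did, whereas Hif1a overlapped with them. Vegfa, a HIF target outside the member list, was 5.82 and 5.76 and differed by -0.46 (SE 0.19), and Myc, at 8.27 and 7.85, by 0.55 (SE 0.26).

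Over the 5 groups, Pdk1 had the order WT KLRG1hi (6.15 ± 0.62), WT KLRG1lo (7.37 ± 0.20), BimKO (7.59 ± 0.13), Id2KOBimKO (8.12 ± 0.08) and Id2KO (8.13 ± 0.39) in log2 signal, with SD over 3, 5, 2, 2 and 2 arrays. Only the first step between neighbours passed a test: BimKO against WT KLRG1lo gave 0.22, and Id2KOBimKO and Id2KO differed by less than their spread. Hif1a ran from 8.42 ± 0.43 (SD, n = 5) in WT KLRG1lo, with WT KLRG1hi next (8.43 ± 0.30, SD, n = 3), to 9.24 ± 0.06 (SD, n = 2) in Id2KO. Its WT populations differed by less than their spread. Of the 28 members, 4 had a group mean at or under the highest background of 5.39: Bnip3, Pfkfb4, which encodes another regulator of phosphofructokinase, Egln3 and Ldhb. Their differences rest on dim signal.

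**Figure D4:**
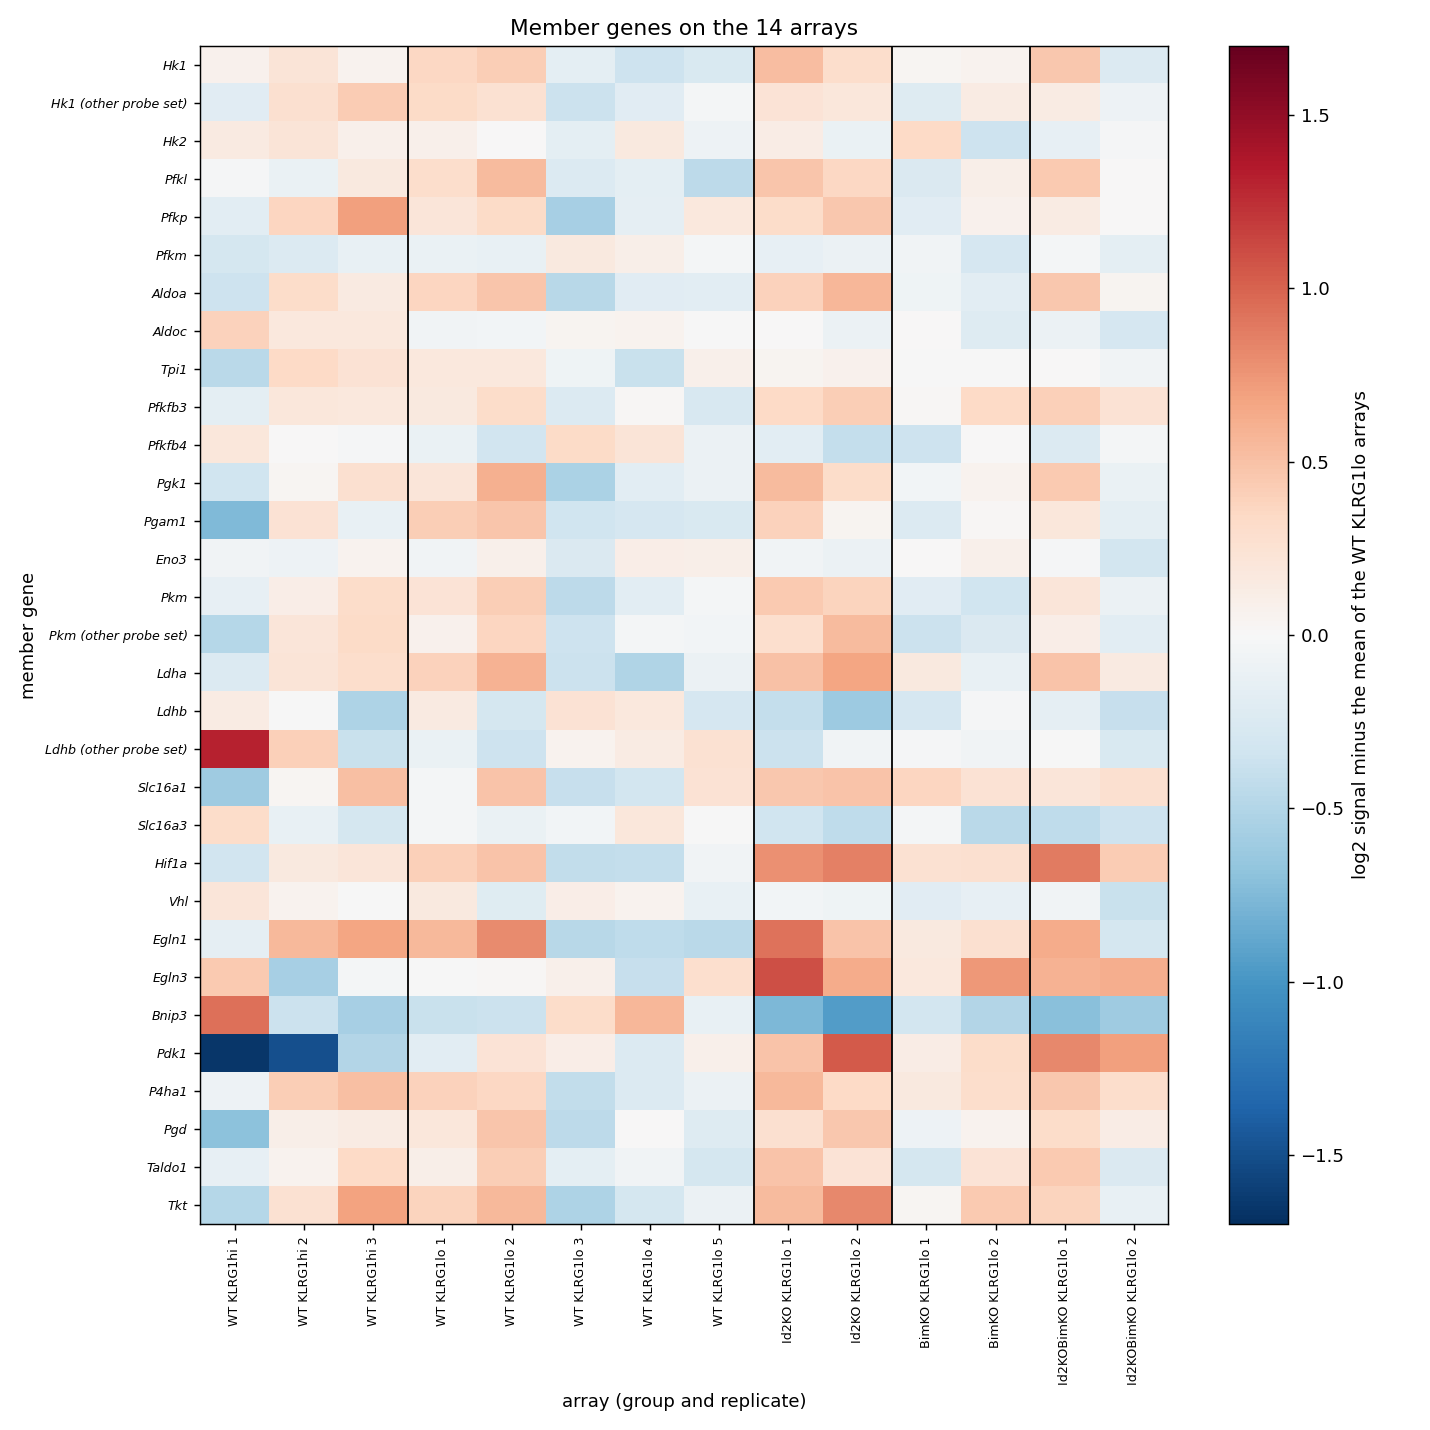
Log2 signal of the members (rows, in the order of the pathway, with the other probe set of Hk1, Pkm and Ldhb) on the 14 arrays (columns, by group and replicate) minus the mean of the 5 WT KLRG1lo arrays; red is higher and blue lower. Pdk1 is the darkest blue on WT KLRG1hi arrays 1 and 2, and many glycolytic rows are red on WT KLRG1lo arrays 1 and 2 and blue on array 3. For Egln1, the mean of WT KLRG1lo arrays 1 and 2 is 1.13 above the mean of arrays 3 to 5.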

How the data were processed

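The authors deposited RMA signal, an intensity on a scale read as linear from the values, for 34760 probe sets on 14 arrays. RMA and the assembly mm9 are named per the submitters' processing notes, without a version of RMA. Per the labels' protocols, RNA was extracted with TRIzol, amplified in 2 rounds with MessageAmp and biotin-labelled. No scanner files were used, and how the values were centred is unknown. The deposited intensity was turned into log2 here without an offset.

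Of the probe sets, 21640 named 1 gene, 1321 several and 11799 none; 21553 were found in a RefSeq table (GRCm38.p6), used for names and gene order. Per gene, the single-gene probe set with the highest mean was kept. Genes above the 40th percentile of an array on at least 2 arrays were tested (14438).

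A model of 5 group means over all arrays was fitted with limma 3.58.1 in R 4.3.3 (lmFit, eBayes; 9 residual and 7.99 prior degrees of freedom), two-sided, with Benjamini-Hochberg adjustment over all genes tested and a threshold of 0.05. The fit was tested on simulated data. Precision is limited by the number of arrays.

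Described with every array value were members that passed, the 4 members of each comparison with the smallest unadjusted p, and related genes that passed or were among the 2 smallest; other members were named for their role. The members and lists were chosen with earlier results of these data known. Alternatives were filters, quantile normalization, a robust trend, a replicate block, an offset of 16, fits restricted to the groups compared, probe sets averaged per gene, array spread as a covariate, background set as a block and each array left out. Added after seeing the data were WT KLRG1lo arrays 1 and 2 or 3 to 5 alone and probe sets in place.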

Additional observations from a re-analysis of the deposited data

Results flagged for a closer look

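Of 38 genes examined on the 5 WT KLRG1lo arrays, the only group large enough for the check, 1 had an array far from the others, where chance gives about 1 in 20. Bpgm, the related gene that encodes bisphosphoglycerate mutase, had a log2 signal of 7.62 on WT KLRG1lo array 5, while the other 4 arrays of that group lay between 6.53 and 6.80. The gap was 0.756 of the group's range, past Dixon's critical value of 0.71 for 5 samples. No member stood out in this way in WT KLRG1lo, and the groups of 2 or 3 arrays were not examined. Bpgm was also high on WT KLRG1hi array 3 (7.42) and Id2KOBimKO array 2 (7.72). Alas2, a red cell precursor marker, had its 2 highest values on 2 of those 3 arrays, 8.12 on WT KLRG1lo array 5 and 8.20 on Id2KOBimKO array 2, and was 5.35 on WT KLRG1hi array 3; its part in the Bpgm values was not tested.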

How the results depend on the processing

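Of 995 comparisons of a named gene or of the members' median with an alternative setting, 983 gave the same call, 3 no longer passed, 1 newly passed, 7 medians moved and 1 reversed: P4ha1 in WT KLRG1hi against WT KLRG1lo was 0.28 over all arrays and -0.089 against WT KLRG1lo arrays 1 and 2 alone. A gene that had not passed counted as the same if it still did not pass and kept its sign, whatever its size. Only Pdk1, Bhlhe40 and Myc, in WT KLRG1hi against WT KLRG1lo, had a pass to lose. They kept it in 19, 20 and 21 of 21 settings. The count of members that passed in that comparison, 1, became 0 against WT KLRG1lo arrays 1 and 2 alone and was 0 to 1 when arrays were left out in turn, with 0 without WT KLRG1hi array 2. In Id2KO against WT the count of 0 became 5 against WT KLRG1lo arrays 3 to 5 alone (Aldoa, Egln1, Hif1a, Ldha and Pfkl), beside 708 of all genes; the cause was not tested. The other counts of members that passed stayed at 0. Where an array was left out of a pair, the lone array was taken to vary like the other groups.

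With a replicate block, Pdk1 in KLRG1hi against KLRG1lo was -1.27 (limma adjusted p = 0.0247) and the count of members stayed at 1. Deviations of same-numbered arrays correlated at -0.52 to 0.41, over 0.1 in 10 of 21 pairs. Within a group of 2 arrays the deviations mirror each other, so these pairs are not independent. Whether the numbers pair the samples cannot be decided from them.

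Counts over all genes moved with the setting: from 136 to 36 to 376 in KLRG1hi against KLRG1lo, from 16 to 4 to 708 in Id2KO against WT, from 26 to 8 to 52 for the mean Id2 difference, from 9 to 0 to 24 in Id2KOBimKO against WT, from 0 to at most 8 in BimKO against WT, from 0 to at most 4 in Id2KOBimKO against BimKO, and from 4 to 3 to 6 for the difference by Bim. Members close to background, among them Bnip3, Pfkfb4, Egln3 and Ldhb, and groups of 2 arrays limit what these data can show.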

Other observations

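3 related genes outside the naming rule were picked after their values were seen; none passed limma's test between the WT populations, and Gpd2 and Slc2a3 overlapped between them. Gpd2, the mitochondrial glycerol phosphate dehydrogenase, was 7.68, 8.32 and 8.68 in WT KLRG1hi and 7.71, 7.72, 6.96, 7.21 and 7.20 in WT KLRG1lo, a difference of 0.87 (SE 0.22, limma adjusted p = 0.0775). Epas1, which encodes HIF-2 alpha, was 7.40, 7.83 and 7.47 against 7.28, 7.13, 7.01, 7.03 and 6.96, without overlap, a difference of 0.48 (SE 0.15, limma adjusted p = 0.226). The glucose carrier gene Slc2a3 was 8.44, 8.87 and 9.41 against 8.77, 8.93, 7.95, 8.16 and 8.58, a difference of 0.43 (SE 0.22, limma adjusted p = 0.788).

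The Ldhb probe set in place read 6.35 on WT KLRG1hi array 1 and 4.67 to 5.46 on the other 13 arrays, and the Bnip3 probe set read 6.18 on that array and 4.30 to 5.81 on the rest.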
